A study of Mus musculus with 6 samples.

Results

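Toll-like receptors with their co-receptors and adaptors were examined in BM neutrophils of naive and LL2 tumor-bearing (TB) mice. The set held 10 genes chosen by name from what their proteins do, out of 38887 Ensembl identifiers in the count table. The choice was made with earlier results of these data known, so counts of called genes in the set are a description. The genes were the receptors Tlr1, Tlr2, Tlr4, Tlr6, Tlr9 and Tlr13, the co-receptors Cd14 and Ly96, and the adaptors Myd88 and Tirap. All 10 were found in the table. After removal of genes with low counts, 9 of them remained among 12259 tested genes, and Tlr9 did not. Tlr1 passed that filter only through the three-week libraries.

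The study sequenced RNA of Ly6G+ cells that were taken from bone marrow with Ly6G beads. Naive mice carried no tumor. LL2 is a Lewis lung carcinoma line, here with a luciferase gene, that was injected into a vein so that lesions formed in the lung. Cells were collected 1 week after the injection (one-week LL2) or 3 weeks after it (three-week LL2), and each of the 3 groups had 2 libraries. The labels give no genotype, age or sex for these mice and no agent other than the tumor cells, and the study's methods name C57BL/6 mice. The labels call each replicate a mouse and do not say whether cells of several mice were pooled. The tumor line is transplanted, so the model holds 1 cell line and no slowly arising tumor.

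Toll-like receptors bind conserved microbial molecules, and some also respond to products of damaged tissue. TLR2 works as a pair with TLR1 or TLR6 and binds bacterial lipopeptides. TLR4 with MD-2, the product of Ly96, binds lipopolysaccharide that CD14 hands over. TLR9 and TLR13 lie in endosomes, where TLR9 binds DNA with unmethylated CpG and TLR13 binds a stretch of bacterial ribosomal RNA. TIRAP brings MYD88 to TLR2 and TLR4 at the plasma membrane, and MYD88 gathers the IRAK kinases that lead to NF-kappa B and to cytokine genes. Neutrophils carry most of these receptors and answer their ligands with longer survival, priming of the oxidase and release of chemokines.

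The libraries held between 11994158 and 14127919 counts. A level is given as counts per 1000000 (CPM) over a library size scaled by the TMM method, as mean ± SD of n = 2 libraries. Changes are log2 fold changes with their standard error (SE) from edgeR's quasi-likelihood test over all 12259 genes, and a gene was called where its Benjamini-Hochberg adjusted p was under 0.05. Neutrophil markers were detected throughout, 12 of 12 in each library, with a summed level between 285150 and 349013 CPM, most of it from the calprotectin genes S100a8 and S100a9. Ly6g itself, the gene of the selection marker, was at 0.491 to 2.14 CPM. Replicates of a group differed by more than counting noise, as a chi-square test of their counts over genes gave 8.34 to 11.4 per degree of freedom, so no library was a copy of its replicate. With 2 libraries per group, p-values set a difference against the spread between replicate libraries, estimated over all 3 groups and moderated over the tested genes. Whether that spread is between single mice or between pools is not known. In bulk RNA, fewer cells of a type and less RNA per cell cannot be told apart.

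Promoter sequences from RefSeq on GRCm38.p6 were searched for 7 of the 10 genes. Cd14 was left out of the search, and Tlr4 and Ly96 had no window in the source used. Those of 4 are shown, because Tlr1, Tlr6 and Myd88 were higher in three-week LL2 mice and Tlr2, the partner of TLR1 and TLR6, was not called. Each window runs from 250 bases before a start given by RefSeq to 50 bases after it, 5′ to 3′ on the strand of the gene. Capitals mark matches to 3 motifs, searched on both strands: the kappa B pattern of NF-kappa B (GGG and CC with any 5 bases between them), the gamma-activated site TTCNNNGAA of STAT factors, and the interferon-stimulated element of IRF factors (GAAA and GAAA with any 2 bases between them). All 4 genes lie on the minus strand.
Tlr2, chr3:83841559-83841858: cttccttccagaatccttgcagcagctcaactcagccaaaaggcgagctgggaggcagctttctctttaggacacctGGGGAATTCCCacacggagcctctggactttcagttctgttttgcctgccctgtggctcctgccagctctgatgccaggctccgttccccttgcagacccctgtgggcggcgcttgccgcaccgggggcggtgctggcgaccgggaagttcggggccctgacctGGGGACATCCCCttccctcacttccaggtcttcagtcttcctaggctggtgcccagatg
Tlr1, chr5:64933509-64933808: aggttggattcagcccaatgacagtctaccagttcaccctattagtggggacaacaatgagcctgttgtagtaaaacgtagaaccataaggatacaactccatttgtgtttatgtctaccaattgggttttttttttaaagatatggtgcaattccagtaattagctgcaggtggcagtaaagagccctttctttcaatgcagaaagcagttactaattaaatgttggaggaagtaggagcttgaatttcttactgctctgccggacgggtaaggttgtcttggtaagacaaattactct
Tlr6, chr5:64959999-64960298: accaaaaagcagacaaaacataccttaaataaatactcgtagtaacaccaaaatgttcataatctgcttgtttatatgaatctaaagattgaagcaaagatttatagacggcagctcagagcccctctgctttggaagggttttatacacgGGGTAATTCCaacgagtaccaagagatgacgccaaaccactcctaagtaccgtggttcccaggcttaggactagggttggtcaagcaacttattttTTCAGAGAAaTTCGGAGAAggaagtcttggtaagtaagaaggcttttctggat
Myd88, chr9:119339969-119340268: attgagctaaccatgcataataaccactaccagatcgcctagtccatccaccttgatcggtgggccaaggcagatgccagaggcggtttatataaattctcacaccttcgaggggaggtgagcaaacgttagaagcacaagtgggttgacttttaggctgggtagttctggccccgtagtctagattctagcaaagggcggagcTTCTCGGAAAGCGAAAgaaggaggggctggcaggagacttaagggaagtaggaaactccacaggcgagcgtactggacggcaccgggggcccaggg
The Tlr2 window held kappa B matches in 2 separate blocks. The Tlr6 window held 1 kappa B match 99 bases before the start and 2 gamma-activated sites at the start. The Myd88 window held 1 gamma-activated site that begins 46 bases before the start, 1 interferon-stimulated element that begins 40 bases before the start and overlaps the end of the former, and no kappa B match. This window lies inside the GENCODE M21 span of Myd88 (chr9:119335934-119341411), so the distances count from the RefSeq start. The Tlr1 window held none of the 3 motifs. RefSeq gives Tlr1 and Tlr6 each 1 further start inside the gene, and those windows, not shown, held 1 gamma-activated site for Tlr1 and 1 block of interferon-stimulated elements for Tlr6. Tirap, which was not called, had overlapping windows, also not shown, with kappa B matches in 3 and in 2 blocks. Those of Tlr9 and Tlr13 held none of the 3 motifs. Among all 32851 promoter windows, 50.8% held a kappa B match, 8.3% a gamma-activated site and 3.44% an interferon-stimulated element. The core of the PU.1 motif, GAGGAA, was present in 28.3% of windows and in those of Tlr1, Tlr9 and Tlr13, and TATAAA in 13.6% of windows and in those of Tlr6 and Myd88. These matches are a description of the letters in the windows.

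Of the 9 tested genes, 5 were higher in three-week LL2 than in naive neutrophils. These were Tlr1, Tlr4, Tlr6, Cd14 and Myd88. By edgeR 0 were lower, as by DESeq2 and at an unadjusted p under 0.05. Over all tested genes, 12.0% were called higher and 9.42% lower in this comparison. The median log2 fold change of the 9 genes was 0.71, against 0.03 for all tested genes. Without Tlr1, which passed the filter through the three-week libraries alone, 4 of 8 genes were called and the median was 0.52. Both three-week libraries lay above both naive libraries for 8 of the 9 genes, which was the case for 32.1% of all tested genes.

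Against one-week LL2 neutrophils, 6 of the 9 genes were higher at 3 weeks, and 0 were lower by edgeR, by DESeq2 or at an unadjusted p under 0.05. Tlr13 joined the same 5 genes. Over all tested genes, 12.9% were called higher and 9.57% lower. The median log2 fold change was 0.98 for the 9 genes and -0.02 for all tested genes, and without Tlr1 5 of 8 genes were called. Between one-week LL2 and naive neutrophils, 1 of the 9 genes, Tlr13, was called lower. By edgeR 0 were called higher, as by DESeq2, and 1 (Tlr2) had an unadjusted p under 0.05. Over all tested genes, 3.76% were called lower and 4.23% higher. In 5 of the 9 genes the 2 one-week values were each under the 2 naive ones, against 26.1% of all tested genes, and the median log2 fold change was -0.21. The 3 comparisons share groups, so their values are not independent of each other.

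**Figure D1:**
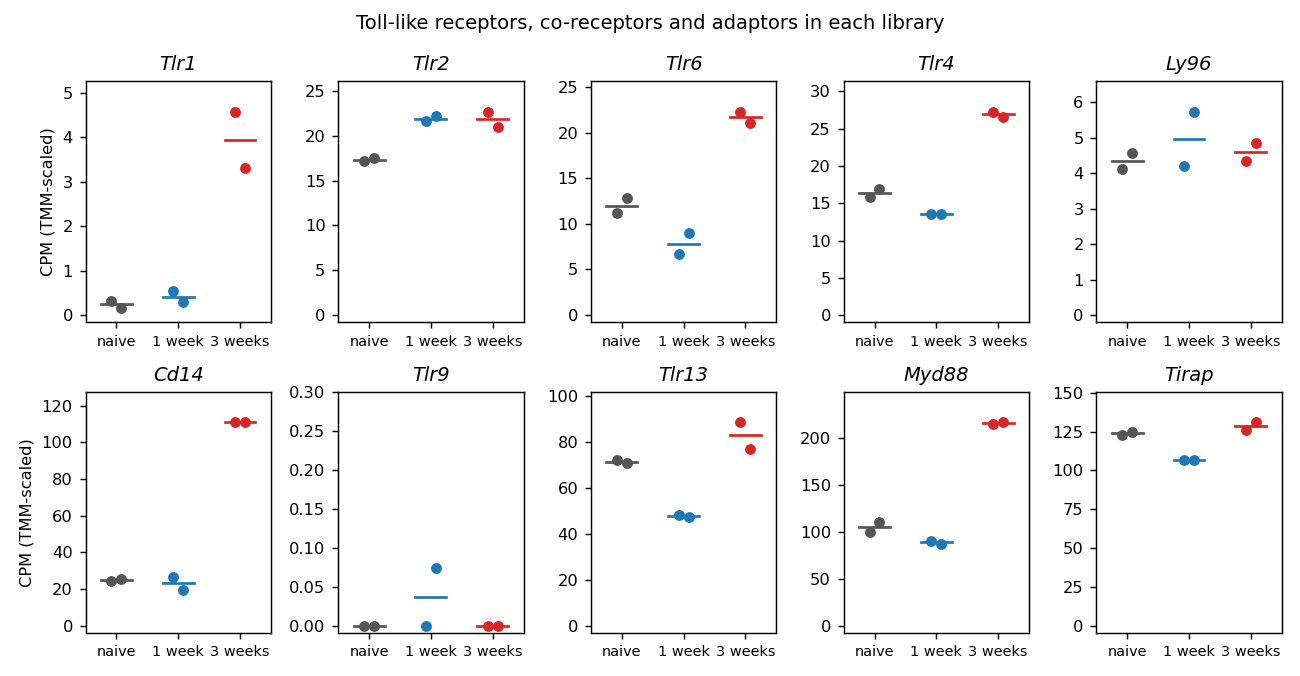
Level of each of the 10 genes in each library, in TMM-scaled CPM on linear axes that start at 0, by group; points are libraries and lines are means of 2 libraries. Cd14, Myd88, Tlr4, Tlr6 and Tlr1 stood highest in both three-week libraries, and Tlr9 was at 0 counts in all libraries but one.

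Among the receptors of lipopeptides, Tlr1 and Tlr6 rose at 3 weeks and Tlr2 did not pass the test. Tlr2 (ENSMUSG00000027995, GRCm38 chr3:83836272-83841767) encodes the partner shared by both pairs. It was at 17.2 and 17.5 CPM in the naive libraries, 21.6 and 22.2 CPM in the one-week libraries and 22.7 and 21 CPM in the three-week libraries. All 4 libraries of tumor-bearing mice thus lay above both naive ones, and the one-week values lay within the three-week range. The log2 fold change was 0.34 (SE 0.143, edgeR adjusted p = 0.176) at 1 week and 0.33 (SE 0.144, edgeR adjusted p = 0.121) at 3 weeks against naive mice. Their 95% intervals ran from 0.03 to 0.65 and from 0.02 to 0.64. Between the tumor-bearing groups the interval of the difference was -0.31 to 0.30.

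Tlr6 (ENSMUSG00000051498, GRCm38 chr5:64952031-64960097) encodes the partner of TLR2 for diacylated lipopeptides. Its level was 11.2 and 12.8 CPM in naive, 6.68 and 8.95 CPM in one-week and 22.3 and 21.1 CPM in three-week libraries. The 3 groups did not overlap, with one-week mice lowest and three-week mice highest. Tlr6 rose at 3 weeks against naive mice by 0.85 (log2, SE 0.178, edgeR adjusted p = 0.00416) and against one-week mice by 1.48 (SE 0.183, edgeR adjusted p = 9.71e-05). The first of these calls was lost when naive replicate 1 was left out (0.73, edgeR adjusted p = 0.0632). At 1 week the log2 fold change was -0.62 (SE 0.189), with an edgeR adjusted p of 0.0618.

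Tlr1 (ENSMUSG00000044827, GRCm38 chr5:64924679-64933563) lies beside Tlr6 and encodes the partner of TLR2 for triacylated lipopeptides. It had 4 and 2 counts in the naive libraries, 8 and 4 in the one-week libraries and 59 and 43 in the three-week libraries. These counts came to 0.240 ± 0.108, 0.416 ± 0.167 and 3.94 ± 0.898 CPM (SD, n = 2). The naive and one-week libraries were near the limit of detection and the three-week libraries stood apart from them. The fitted log2 fold change at 3 weeks was 3.98 (SE 0.580, edgeR adjusted p = 0.000353) against naive and 3.2 (SE 0.519, edgeR adjusted p = 0.000711) against one-week mice. Summed over the libraries of a group and scaled to their sizes, Tlr1 counts at 3 weeks were 14.7 times those of naive mice (102 against 6 counts, exact 95% interval 6.54 to 41.1) and 8.1 times those of one-week mice (102 against 12 counts, 4.44 to 16.2). These intervals cover counting error only.

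Tlr1 and Tlr6 are close relatives in sequence. Of the 50-base windows in the exons of Tlr1, 13.6% also occur in Tlr6, and 10.3% of the 75-base windows do. The authors' counting could split such reads between the genes. Tlr1 took 2.74% (Wilson 95% interval 1.07 to 6.83) and 1.27% (0.348 to 4.5) of the joint counts of both genes in the naive libraries. Its share was 7.41% (3.8 to 13.9) and 3.23% (1.26 to 8) in the one-week libraries and 17% (13.4 to 21.3) and 13.6% (10.2 to 17.8) in the three-week libraries. Both three-week shares were above the other 4 within the same libraries, a comparison that no scaling between libraries can move. The interval of one-week replicate 1 overlapped those of both three-week libraries, and these intervals cover counting error only.

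In the receptor complex for lipopolysaccharide, Cd14 and Tlr4 rose at 3 weeks and Ly96 did not pass the test. Cd14 (ENSMUSG00000051439, GRCm38 chr18:36725067-36726798) encodes the protein that passes lipopolysaccharide to TLR4 and MD-2. It was at 24.7 and 25.5 CPM in naive, 26.7 and 19.5 CPM in one-week and 111 and 111 CPM in three-week libraries. Naive and one-week libraries overlapped, and both three-week libraries stood far above them. The rise was 2.14 on the log2 scale against naive mice (SE 0.149, edgeR adjusted p = 1.24e-06) and 2.26 against one-week mice (SE 0.149, edgeR adjusted p = 5.68e-07). The difference between one-week and naive mice was -0.11 (SE 0.152, edgeR adjusted p = 0.714).

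Tlr4 (ENSMUSG00000039005, GRCm38 chr4:66827584-66930284), the signaling receptor of the complex, was at 15.9 and 16.9 CPM in naive, 13.6 and 13.6 CPM in one-week and 27.3 and 26.6 CPM in three-week libraries. No groups overlapped. Tlr4 rose at 3 weeks by 0.71 (log2, SE 0.144, edgeR adjusted p = 0.00342) against naive and by 0.98 (SE 0.145, edgeR adjusted p = 0.000347) against one-week mice. The ratio of Cd14 to Tlr4 CPM within a library was 1.43 to 1.96 in the 4 naive and one-week libraries, and 4.05 and 4.16 in the three-week libraries. Within the same libraries Cd14 was thus raised more than its receptor.

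Ly96 (ENSMUSG00000025779, GRCm38 chr1:16688051-16709611) encodes MD-2, the part of the complex that holds lipid A. It was at 4.11 and 4.58 CPM in naive, 4.21 and 5.74 CPM in one-week and 4.34 and 4.85 CPM in three-week libraries, so all groups overlapped. The log2 fold change at 3 weeks against naive mice was 0.08 (SE 0.277, edgeR adjusted p = 0.877), with a 95% interval from -0.52 to 0.68, and turned to -0.07 where libraries were scaled by their totals alone. At 52 to 77 counts per library, a change smaller than this interval was not detectable.

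Of the receptors of nucleic acids, Tlr13 was abundant and Tlr9 was nearly absent from the counts. Tlr13 (ENSMUSG00000033777, GRCm38 chrX:106143204-106160493) was at 72.2 and 70.7 CPM in naive, 48.4 and 47.5 CPM in one-week and 88.6 and 77.1 CPM in three-week libraries. The 3 groups did not overlap, and one-week mice were lowest. Tlr13 fell at 1 week against naive mice by 0.58 on the log2 scale (SE 0.122, edgeR adjusted p = 0.0133) and was higher at 3 weeks than at 1 week by 0.79 (SE 0.122, edgeR adjusted p = 0.000486). Against naive mice, the log2 fold change at 3 weeks was 0.21 (SE 0.120, edgeR adjusted p = 0.240), with a 95% interval from -0.05 to 0.47. The call at 1 week was lost without naive replicate 1 (adjusted p = 0.102), without one-week replicate 1 (0.0833) and without one-week replicate 2 (0.0983), and the edgeR log2 fold change then was -0.56, -0.59 and -0.57.

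Tlr9 (ENSMUSG00000045322, GRCm38 chr9:106222598-106226883) had 1 count in 1 one-week library and 0 counts in the other 5. A count of 0 allows up to 3 counts, which is 0.2 to 0.246 CPM in these libraries. Differences in Tlr9 between the groups were not detectable at this depth.

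**Figure D2:**
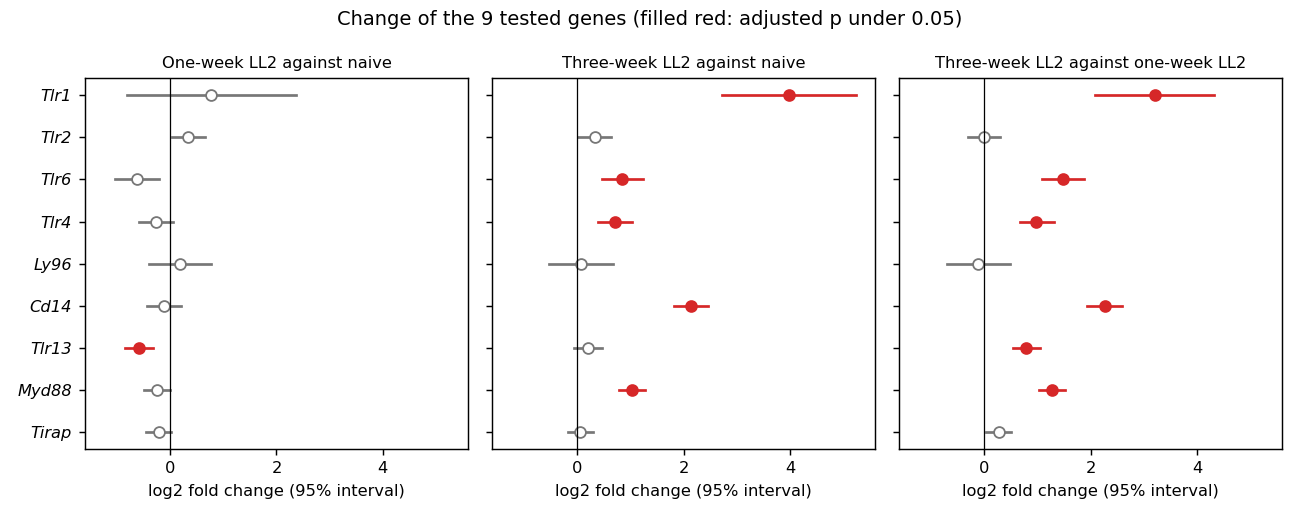
Log2 fold change of the 9 tested genes in the 3 comparisons, with the 95% interval of the edgeR fit as a line; filled red points had an adjusted p under 0.05. Called genes lay to the right of 0 in both comparisons of three-week mice, and Tlr13 alone was called, to the left, at 1 week.

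The adaptors differed from each other: Myd88 rose at 3 weeks and Tirap did not pass the test. Myd88 (ENSMUSG00000032508, GRCm38 chr9:119335934-119341411) encodes the adaptor through which most Toll-like receptors and the interleukin-1 receptors signal. It was at 99.9 and 111 CPM in naive, 90.8 and 87.4 CPM in one-week and 215 and 217 CPM in three-week libraries. The groups did not overlap, and the three-week libraries were far above the rest. Myd88 rose by 1.03 (log2, SE 0.113, edgeR adjusted p = 4.23e-05) against naive and by 1.28 (SE 0.114, edgeR adjusted p = 7.39e-06) against one-week mice. At 1 week the log2 fold change was -0.25 (SE 0.114, edgeR adjusted p = 0.213). Myd88 shares 290 exon bases, 11.3% of its own, with Acaa1a on the opposite strand, and the strand used in counting is not given in the sources used here. Acaa1a was at 40.6, 39.2 and 51.4 CPM in naive, one-week and three-week mice. By edgeR it was called higher in three-week than in one-week mice.

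Tirap (ENSMUSG00000032041, GRCm38 chr9:35184551-35200291) encodes the adaptor that binds the membrane and recruits MYD88 to TLR2 and TLR4. It was at 123 and 125 CPM in naive, 107 and 107 CPM in one-week and 126 and 131 CPM in three-week libraries. One-week libraries were the lowest and three-week libraries the highest, with a narrow gap to naive mice. The log2 fold change was -0.21 (SE 0.109, edgeR adjusted p = 0.268) at 1 week and 0.05 (SE 0.109, edgeR adjusted p = 0.774; 95% interval -0.18 to 0.29) at 3 weeks against naive mice, and the latter turned to -0.09 where libraries were scaled by their totals alone. Three-week against one-week mice gave 0.27 (edgeR adjusted p = 0.0995; 95% interval 0.03 to 0.50). The ratio of Myd88 to Tirap CPM within a library was 0.812 to 0.892 in naive and one-week libraries and 1.65 to 1.7 in three-week libraries.

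Per kilobase of exon, Myd88 had the highest level of the 10 genes in every group. In naive mice, the order of mean CPM per kilobase was Myd88 (41), Tirap (25.2), Tlr13 (16.6), Cd14 (14.5), Tlr2 (5.75), Ly96 (4.26), Tlr6 (3.22), Tlr4 (2.96), Tlr1 (0.0718) and Tlr9 (0). Tlr6 and Tlr4 were the 1 pair of neighbours whose naive libraries overlapped. In one-week mice, Cd14 at 13.3 CPM per kilobase stood above Tlr13 at 11.1, and Tlr4 at 2.45 above Tlr6 at 2.1. In three-week mice, Cd14 at 63.9 CPM per kilobase was second to Myd88 at 83.7, and Ly96 at 4.5 stood below Tlr6 at 5.82 and Tlr4 at 4.85. No neighbours in the one-week or three-week order overlapped over their 2 libraries. Tlr4 CPM was 0.616 to 0.967 times that of Tlr2 in the naive and one-week libraries, and 1.2 and 1.27 times in the three-week libraries.

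**Figure D3:**
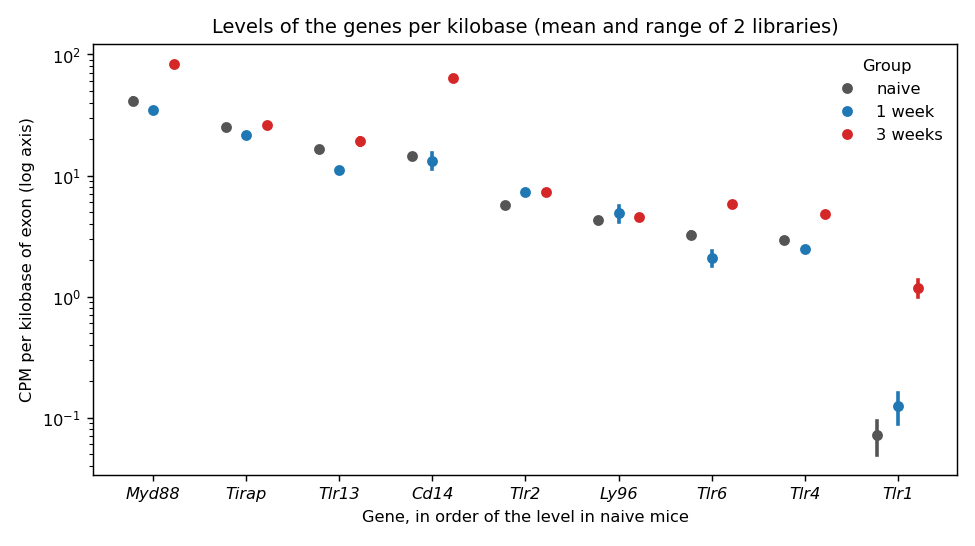
Mean CPM per kilobase of exon on a log axis for 9 of the 10 genes, ordered by their level in naive mice; vertical lines span the 2 libraries of a group, and Tlr9 is not drawn because it was at 0 in naive mice. Cd14 moved from 14.5 in naive to 63.9 in three-week mice, while Tirap was at 25.2 and 26.1.

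The genes whose pattern over the 6 libraries was most like that of Cd14 were Ctnnbip1, Spata13, Lat2, Atrnl1 and Zfp36l1. Likeness was the root mean square difference of log2 CPM after centring each gene on its mean, over 6071 tested genes with a mean of at least 10 CPM. It was 0.181 for Ctnnbip1, which encodes an inhibitor of beta-catenin and was at 159, 136 and 573 CPM in naive, one-week and three-week mice. It was 0.252 for Zfp36l1, an RNA-binding protein that speeds mRNA decay, at 36, 26.4 and 130 CPM. The genes most like Myd88 were Myadm, Ppp1r3d, Gcnt2, Gcnt1 and Tpd52, with differences from 0.0518 to 0.0849. Myadm was at 77.7, 66.4 and 166 CPM, and Gcnt2 and Gcnt1, which encode enzymes that branch glycans, were at 128, 114 and 268 CPM and at 86.8, 67.2 and 185 CPM.

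Genes that act with these receptors, and Acaa1a, which overlaps Myd88, were taken from lists of 128 further genes, of which 118 were tested. At 3 weeks against naive mice, 24 were higher and 23 lower, with a median log2 fold change of 0.04. At 3 weeks against 1 week, 37 were higher and 15 lower, and at 1 week against naive mice, 12 were lower and 0 higher by edgeR. DESeq2 also called 0 higher there, and 9 had an unadjusted p under 0.05 in that direction. The 24 and the 37 include Nos2 and Saa3, which passed the filter on low counts only through the three-week libraries. Over all tested genes, edgeR called 12.0% higher and 9.42% lower at 3 weeks against naive mice. The shares were 12.9% and 9.57% at 3 weeks against 1 week, and 4.23% and 3.76% at 1 week against naive mice. These shares are the background for the counts in every list below. The rises at 3 weeks in the receptors and in Myd88 thus stood beside changes in both directions in the rest of the pathway.

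Of 4 other Toll-like receptors tested, 0 were higher at 3 weeks by edgeR, by DESeq2 or at an unadjusted p under 0.05. Tlr5, the receptor of flagellin, was at 11.3 and 5.81 CPM in naive, 7.41 and 4.92 CPM in one-week and 2.4 and 5.0 CPM in three-week libraries. It was the 1 receptor of this list that changed, and fell by 1.21 at 3 weeks against naive mice (log2, SE 0.374, edgeR adjusted p = 0.0353). Tlr7, which binds single-stranded RNA, was at 3.23 to 6.05 CPM, Tlr12 at 1.67 to 2.93 CPM and Tlr3, which binds double-stranded RNA, at 0.0769 to 0.901 CPM over the 6 libraries, and none of them was called. Tlr8 and Tlr11 did not pass the filter on low counts. Of 13 genes listed as co-receptors and chaperones, Cnpy3, a chaperone of several Toll-like receptors, fell at 3 weeks against naive mice (-0.42, SE 0.131, edgeR adjusted p = 0.0366). Itgam, the CD11b integrin chain, was higher at 3 weeks than at 1 week (0.51, SE 0.132, edgeR adjusted p = 0.0136). Acaa1a, which shares exon bases with Myd88, was also called higher by edgeR in that comparison. It is counted among the 13 but is not a known co-receptor or chaperone. Unc93b1, which carries the endosomal receptors, was at 84.2 ± 5.38, 77.2 ± 10.2 and 88.2 ± 10.3 CPM (SD, n = 2). Of 5 other adaptors tested, Irf2bp2 fell at 3 weeks against naive mice (-0.52, SE 0.128, edgeR adjusted p = 0.011).

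Among 20 genes of kinases, ubiquitin ligases and their partner proteins below the receptors, 4 were lower at 1 week than in naive mice. At 3 weeks, 7 were higher than at 1 week. Over all tested genes, 3.76% were called lower in the former comparison and 12.9% higher in the latter. Ripk1, a kinase that relays signals to NF-kappa B, was at 30.6 and 33.2 CPM in naive, 19.3 and 16.0 CPM in one-week and 38.9 and 43.4 CPM in three-week libraries. It fell at 1 week by 0.85 (log2, SE 0.146, edgeR adjusted p = 0.00456) and was higher at 3 weeks than at 1 week by 1.22 (SE 0.145, edgeR adjusted p = 7.28e-05). Peli1 and Map3k7, which encodes TAK1, also fell at 1 week. Map3k8, which activates the ERK branch, was at 11.9 and 14.1 CPM in naive, 14.7 and 17.0 CPM in one-week and 27.0 and 32.2 CPM in three-week libraries, and rose by 1.19 against naive mice (SE 0.165, edgeR adjusted p = 0.000264). Against naive mice at 3 weeks, 3 of the 20 genes were higher and 3 lower. Irak2, a kinase of the MYD88 complex, was among the lower ones at 20.1 ± 3.05 against 33.7 ± 6.93 CPM (-0.74, SE 0.175, edgeR adjusted p = 0.00894), with Traf3 and Peli1. Its partner Irak4 was higher at 3 weeks than at 1 week (0.63, SE 0.130, edgeR adjusted p = 0.00379).

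Of 22 genes that restrain the pathway, 6 were higher and 6 lower at 3 weeks than in naive mice. Cd300lf, an inhibitory surface receptor, was at 385, 295 and 654 CPM in naive, one-week and three-week mice and rose by 0.76 against naive mice (SE 0.121, edgeR adjusted p = 0.000663). Zfp36, which speeds the decay of cytokine mRNA, and Trim30a rose as well. Atf3, a repressor of cytokine genes, was at 14.9, 12.5 and 4.44 CPM and fell by 1.74 (SE 0.219, edgeR adjusted p = 0.000127). Usp18 and Socs1, which limit interferon and cytokine signals, fell at 3 weeks, by 1.64 and by 1.13. At 1 week, Dusp1, a phosphatase of MAP kinases, was the 1 gene of the list that changed and fell by 0.90 against naive mice (SE 0.204, edgeR adjusted p = 0.0183).

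Of 7 genes of endosomal proteases, which trim the endosomal receptors, and of their inhibitor cystatin C, 4 were higher at 3 weeks than in naive mice, and 0 were lower by edgeR, by DESeq2 or at an unadjusted p under 0.05. Ctsl, which encodes cathepsin L, was at 19.2 and 21.2 CPM in naive, 27.5 and 24.1 CPM in one-week and 59.8 and 58.1 CPM in three-week libraries and rose by 1.54 (log2, SE 0.135, edgeR adjusted p = 5.72e-06). Lgmn, asparagine endopeptidase, rose by 1.24 (SE 0.235, edgeR adjusted p = 0.00219), and Ctss by 0.66 (edgeR adjusted p = 0.0024). At 1 week against naive mice, edgeR and DESeq2 called 0 of the list, and 2 (Ctsb and Ctsl) had an unadjusted p under 0.05, in the higher direction.

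**Figure D4:**
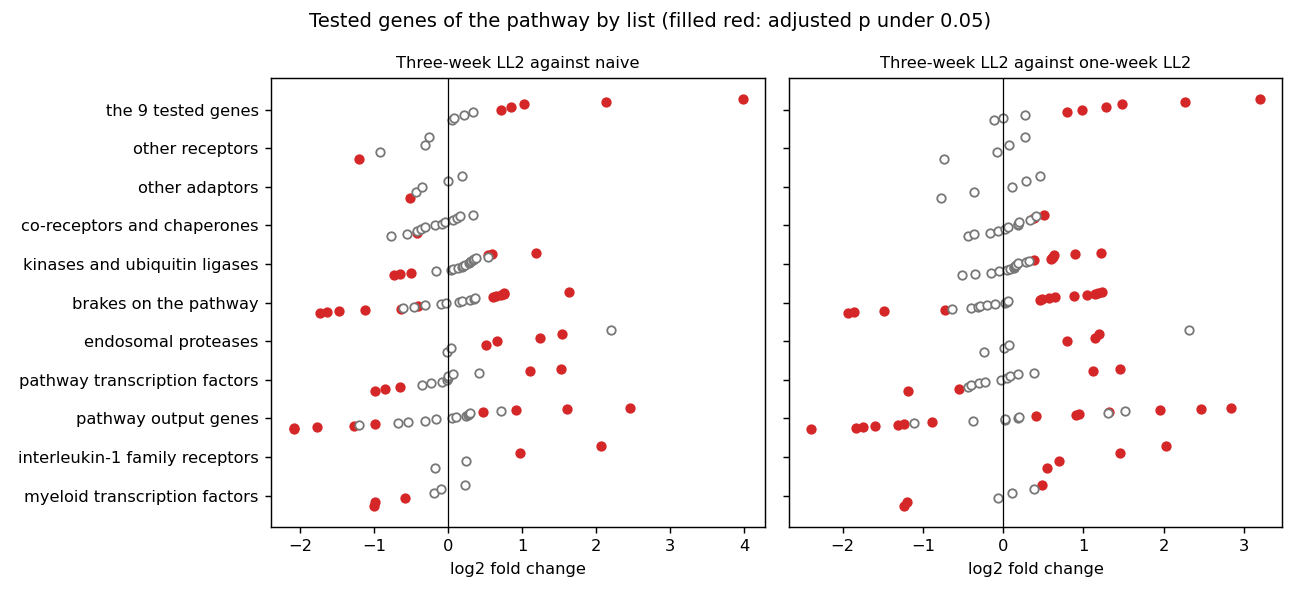
Log2 fold changes of the tested genes in each list at 3 weeks, against naive mice on the left (124 genes) and against one-week mice on the right (125 genes); filled red points had an edgeR adjusted p under 0.05. Genes with at most 3 counts in each library of a group are not drawn (Cxcl3, Nos2 and Saa3 on the left, Nos2 and Saa3 on the right); of the 9 tested genes of the set, 5 were called on the left and 6 on the right, each to the right of 0, and the brakes, the transcription factors and the output genes had calls on both sides of 0 in both panels.

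Transcription factors of the pathway changed in both directions. Of 13 tested, 2 were higher and 3 lower at 3 weeks than in naive mice. Cebpb, a factor of emergency granulopoiesis and of cytokine genes, was at 326, 433 and 941 CPM in naive, one-week and three-week mice and rose by 1.53 (log2, SE 0.165, edgeR adjusted p = 3.56e-05). Jun rose by 1.1 (SE 0.166, edgeR adjusted p = 0.000449). Irf7 and Irf5, which act below the endosomal receptors in other cells, fell, Irf7 from 48.7 to 24.5 CPM (-0.99, SE 0.155, edgeR adjusted p = 0.000568). Rel, a subunit of NF-kappa B, was at 11.3, 4.78 and 6.25 CPM and fell at both times, by 1.24 and by 0.85 against naive mice.

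Genes that these receptors are known to induce split as well. Of 24 tested, 7 were higher and 5 lower at 3 weeks than in naive mice. Nos2, Saa3 and Cxcl3 passed the filter on low counts only through the three-week libraries, where they were high. Nos2 and Saa3 are among the 7, so their calls follow in part from that filter. Socs3 was at 29.6, 22.7 and 162 CPM in naive, one-week and three-week mice and rose by 2.46 (log2, SE 0.167, edgeR adjusted p = 1.12e-06). The chemokine gene Cxcl2 was at 810, 633 and 2465 CPM and rose by 1.61 (SE 0.213, edgeR adjusted p = 0.000189). Nos2, the inducible nitric oxide synthase, had 0 counts in naive and one-week libraries and was at 6.45 ± 1.62 CPM (SD, n = 2) in three-week mice, at least 26.7-fold higher than naive mice with 3 counts per library as the floor. Saa3, an acute-phase gene, was at 4.21 ± 0.248 CPM there and at least 17.4-fold higher than in naive mice, where it had 0 counts.

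Other output genes went the opposite way. Il1rn, the antagonist of the interleukin-1 receptor, was at 185, 108 and 43.4 CPM and fell by 0.77 at 1 week (log2, SE 0.112, edgeR adjusted p = 0.00182) and by 2.09 at 3 weeks (SE 0.118, edgeR adjusted p = 2.72e-07). Slc7a11 fell by 2.09 and Ccl4 by 0.99 at 3 weeks. At 1 week, 3 output genes were lower than in naive mice. By edgeR and DESeq2 0 were higher, and 2 had an unadjusted p under 0.05. Acod1, which makes itaconate, was at 35.6 and 35.0 CPM in naive, 15.3 and 19.2 CPM in one-week and 45.8 and 40.2 CPM in three-week libraries and fell at 1 week by 1.04 (SE 0.149, edgeR adjusted p = 0.00175). Nfkbia, the inhibitor of NF-kappa B, fell at 1 week by 0.69 (SE 0.171, edgeR adjusted p = 0.0262). Tnf was at 23.7 ± 4.10, 28.5 ± 2.38 and 32.7 ± 0.786 CPM, and Il1b at 758 ± 145, 596 ± 22.4 and 674 ± 348 CPM, and its edgeR adjusted p at 3 weeks was 0.689.

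Of 6 listed genes of the interleukin-1 receptor family, whose signaling members use MYD88 too, 4 were tested, among them a decoy receptor. By edgeR 4 of 4 were higher at 3 weeks than at 1 week, and by DESeq2 3 were. Over all tested genes 12.9% were called higher by edgeR. Il1r1 had 0 to 5 counts per library and was not tested. Il1rap, the shared accessory chain, was at 4.04 and 5.16 CPM in naive, 5.21 and 4.25 CPM in one-week and 23.1 and 15.6 CPM in three-week libraries. It rose by 2.07 against naive mice (log2, SE 0.240, edgeR adjusted p = 6.28e-05). The decoy receptor Il1r2 was at 542, 386 and 1063 CPM and rose by 0.97 (edgeR adjusted p = 0.00133). By edgeR, Il18rap and Il18r1, the chains of the interleukin-18 receptor, were the 2 that fell at 1 week, by 0.45 and by 0.72. DESeq2 called 3 lower there, and at an unadjusted edgeR p under 0.05 Il1r2 was lower as well.

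Of 6 tested factors that drive transcription of Toll-like receptor genes in myeloid cells, 0 were higher at 3 weeks than in naive mice by edgeR, by DESeq2 or at an unadjusted p under 0.05. Of the 6, 3 were lower, namely Cebpe (90.4 to 45.5 CPM; -0.99, edgeR adjusted p = 8.49e-05), Cebpa (9.07 to 4.52 CPM; -1.0, edgeR adjusted p = 0.00742) and Irf8 (49.3 to 33 CPM; -0.58, edgeR adjusted p = 0.0161). Spi1, the gene of PU.1, was at 438, 365 and 510 CPM and was higher at 3 weeks than at 1 week by 0.48 (SE 0.130, edgeR adjusted p = 0.0174).

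Markers of cell stage and of other cells moved with the same groups. The 7 markers of early neutrophil precursors (Elane, Mpo and others) summed to 53.2 to 99.3 CPM in naive and one-week libraries and to 268 and 364 CPM in three-week libraries, and 5 of 7 were higher at 3 weeks than in naive mice. The 8 markers of immature neutrophils (Ngp, Camp, Ltf and others) summed to 42460 to 48769 CPM and to 26468 and 30878 CPM, and 6 of 8 were lower. The 11 markers of mature neutrophils summed to 20862 to 23848 CPM and to 25589 and 26329 CPM, and 5 of 11 were higher. All 10 markers of B lineage cells were lower at 3 weeks than in naive mice, with sums of 66.6 and 91 against 23 and 14.5 CPM. The part of these shifts in the levels of Cd14, Myd88, Tlr1, Tlr4 and Tlr6 was not tested.

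Cd14 and Tlr4 are also genes of monocytes and macrophages. All 16 markers of those cells were detected in every library, with sums of 1188 and 1046 CPM in naive, 937 and 951 CPM in one-week and 1518 and 993 CPM in three-week libraries. The 2 three-week libraries were thus the highest of the 6 and the third lowest in this sum, and the part of these cells in the Cd14 and Tlr4 levels was not tested. Against naive mice at 3 weeks 1 of the 16 markers was higher (F13a1) and 1 lower (Cx3cr1), and at 1 week 0 were called by edgeR or DESeq2, with 3 at an unadjusted p under 0.05 (C1qb higher, Ms4a6c and Vcam1 lower). Against one-week mice at 3 weeks 2 were higher (F13a1 and Vcam1) and 2 lower (Cx3cr1 and Adgre1). Csf1r was at 49 to 67 CPM and C1qa at 125 to 226 CPM over the 6 libraries. Dendritic cell markers summed to 111 to 153 CPM, erythroid markers to 563 to 1489 CPM, T and NK cell markers to 12.6 to 38.2 CPM with Trac at 0 in all libraries, and tumor and epithelial markers to 6.54 to 18.5 CPM with Sftpc at 0 in all. Markers of eosinophils, basophils and mast cells summed to 84.1 and 88.8 CPM in naive, 120 and 134 CPM in one-week and 72.4 and 58 CPM in three-week libraries.

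The scaling between libraries moved the fold changes together. With library totals in place of TMM, the median of all genes shifted by -0.15 at 3 weeks against naive mice and by -0.20 against one-week mice, on the log2 scale, and the 5 and 6 calls among the set remained 5 and 6. All genes then split into 890 higher and 1675 lower against naive mice, compared with 1471 and 1155 under TMM, and into 856 and 2136 against one-week mice, compared with 1586 and 1173.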

How the data were processed

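The authors deposited one table of RSEM expected counts per Ensembl gene, given as whole numbers without scaling between libraries. Per the labels and methods, reads from total RNA libraries were aligned to mm10, and the submitters' processing notes name Bowtie2, RSEM 1.2.31 and DESeq2. Symbols, positions and exon lengths came from GENCODE M21 (GRCm38, the build called mm10), in which 37570 of 38887 identifiers matched. Promoter windows came from RefSeq.

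Genes were filtered with filterByExpr, which left 12259, scaled by TMM (factors 0.9134 to 1.072) and tested by quasi-likelihood F tests (edgeR 4.0.16, R 4.3.3). A single model held the 6 libraries and no factor but the group. P-values were adjusted by Benjamini-Hochberg over all tested genes. SE is the log2 fold change over the root of F. Expected counts were rounded before use, which changed none. The test was tried on simulated data. The replicate numbers denote different mice and pair no samples. Correlations of their deviations were 0.0101 to 0.0379. DESeq2 1.42.0, other scalings and filters, a robust fit, a replicate block and each library left out in turn were alternatives.

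Named genes are the 10 genes of the set, every other Toll-like receptor, up to 3 called genes with the smallest adjusted p per list and direction, and the 5 genes most alike Cd14 and Myd88. Irak4, Unc93b1, Acaa1a, Tnf, Il1b and marker genes named singly were chosen after their values were seen. The set and the lists were chosen with earlier results of these data known.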

Additional observations from a re-analysis of the deposited data

Results flagged for a closer look

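The effect of the tumor at 3 weeks differed from its effect at 1 week for 6 of the 9 tested genes, both taken against the same naive mice, so that the difference equals three-week against one-week mice in edgeR's fit over all genes. On the log2 scale it was 3.2 for Tlr1 (adjusted p = 0.000711), 2.26 for Cd14 (5.68e-07), 1.48 for Tlr6 (9.71e-05), 1.28 for Myd88 (7.39e-06), 0.98 for Tlr4 (0.000347) and 0.79 for Tlr13 (0.000486). In each of the 6 the three-week values were higher than either one-week value, and over all tested genes 12.9% were called higher in this comparison. Tlr1 passed the filter on low counts only through the three-week libraries, and without it 5 of 8 genes were called.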

How the results depend on the processing

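Of 400 recomputed fold changes of the tested genes under 15 alternatives, 387 kept their direction and side of the threshold, 4 lost a call, 1 gained one and 8 changed sign. All 8 sign changes were in differences that had not been called, and in each case the cause was not tested. With library size only, the log2 fold change at 3 weeks against naive mice was -0.07 for Ly96 and -0.09 for Tirap. With each library left out in turn, that of Ly96 ran from -0.05 to 0.40 at 1 week, from -0.03 to 0.17 at 3 weeks against naive and from -0.35 to 0.10 against one-week mice, that of Cd14 at 1 week from -0.36 to 0.09, and that of Tlr2 at 3 weeks against 1 week from -0.05 to 0.06. The calls of Cd14, Myd88 and Tlr4 at 3 weeks held in 15 of 15 alternatives, and that of Tlr6 against naive mice in 14 of 15. Those of Tlr1 held in the 14 alternatives that tested it, and the stricter filter of at least 50 counts in 2 libraries removed Tlr1. Except with no filter, Tlr1 entered these fits only through the three-week libraries, where it was high. Its calls in them are thus no separate support. Tlr13 at 1 week held in 12 of 15.

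At 1 week against naive mice, 1 gene of the set and 979 of all genes changed. With no filter on low counts these became 2 and 1537, where Tlr6 passed at -0.62 (edgeR adjusted p = 0.033). Leaving out 1 library gave 0 to 1 and 147 to 1145 genes, the lowest without naive replicate 1, followed by 277 without one-week replicate 2 and 343 without one-week replicate 1. At 3 weeks, 2626 genes changed against naive mice (1362 to 2392 with 1 library left out, the lowest without naive replicate 1), and 2759 against one-week mice (1502 to 2725, with 1502 without one-week replicate 2 and 1694 without replicate 1). Where an arm keeps 1 library, that library is assumed to vary like the other groups. A replicate block gave 959, 2559 and 2709 changed genes in the 3 comparisons and changed no call in the set, and the numbers share no animals. Levels from library totals moved by more than 1 SD in 15 of 30 cases. The 2 libraries per group and few counts limit what Tlr1, Ly96 and Tlr9 can show.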
